A study of Bos taurus with 47 samples.

Results

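A group of 4 transcripts abundant in fibroblasts and higher in cloned than in fertilized bovine 2-cell embryos was followed through early development. They are ENSBTAG00000005250, ENSBTAG00000011847, ENSBTAG00000019203 and ENSBTAG00000030190, and all 4 were found among the 20526 genes of the table. They were selected on their measured fibroblast level and on being higher in 2-cell embryos made by somatic cell nuclear transfer (scNT) than in those made by in vitro fertilization (IVF), so the fibroblast and 2-cell values are given as a description. The files and the reference table used here give these identifiers no gene name, so no function is stated for them.

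The series held 47 mRNA sequencing libraries in 12 groups. Embryos of both methods were profiled as scNT and IVF 2-cell embryos, 8-cell embryos, morulae and blastocysts, and as blastocyst-derived cells (BDC, whose derivation the labels do not describe), beside mature (MII) oocytes and fibroblasts. Each group had 4 libraries except scNT morulae, which had 3, numbered 2 to 4. Pools held 20 embryos each, taken on days 2, 3, 6 and 8. The extraction protocol speaks of 3 pools per oocyte or embryo stage although 4 libraries are listed for most, so it is not settled that every library is a separate pool. The fibroblasts were primary cultures from ear biopsies of a Brahma Spanish bull cross, and cells of this kind, serum-starved, were the nuclear donors. The IVF embryos were sired by a Holstein bull, so method and genotype cannot be told apart, and embryos of both methods were cultured with bovine cumulus cells. The labels do not say whether replicates came from different animals or cultures. The p-values therefore measure only how these libraries vary, and that variation may be technical.

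In scNT a donor cell is joined to an oocyte whose own chromosomes have been removed. Here, per the labels, the whole fibroblast was placed beside the oocyte and fused with it by an electric pulse. The first divisions of a bovine embryo run mainly on RNA stored by the oocyte, and transcription from the embryo's own genome becomes extensive around the 8-cell stage. In fusion the cytoplasm of the donor cell, with its RNA, joins that of the oocyte, and a fertilized embryo receives no such cell.

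Recovered depth ran from 4608099 to 16642362 reads in the 46 libraries for which whole reads could be recovered. Fibroblast replicate 3 and IVF 2-cell replicate 3 stood apart in fibroblast genes. To show this, a list was made of the 62 genes that averaged 1000 normalized reads or more in fibroblasts and had at most 20 in every oocyte library, the 4 transcripts among them. The other 58 averaged 9.11 on the log2 scale in fibroblast replicate 3, against 11.95 to 12.10 in the other fibroblast libraries. They averaged 5.60 in IVF 2-cell replicate 3, against 1.35 to 3.85 in the other IVF 2-cell libraries and 3.73 to 4.98 in the scNT 2-cell libraries. Without gene symbols, markers of fibroblasts, oocytes and the cumulus cells used in culture could not be looked up, and the part of other cells in the results was not tested. In pooled embryos, fewer cells holding a transcript and less RNA per cell cannot be told apart.

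In fibroblasts the 4 transcripts stood high among all genes. ENSBTAG00000030190 ranked 37 of 20526 by its fibroblast mean, ENSBTAG00000011847 ranked 61, ENSBTAG00000005250 ranked 82 and ENSBTAG00000019203 ranked 259. ENSBTAG00000030190 had 36104.6, 21808.5, 2812.9 and 26106.2 normalized reads in fibroblast replicates 1 to 4, and ENSBTAG00000011847 had 9192.3, 22848.1, 2768.9 and 30152.8. ENSBTAG00000005250 had 16232.2, 13227.2, 2105.4 and 13603.2 normalized reads, and ENSBTAG00000019203 had 3780.2, 7481.1, 780.0 and 7348.7. Replicate 3 was the lowest of the fibroblast libraries for each transcript, between 7.71 and 12.8 times below the highest. Leaving out replicate 3 lowers every share of the fibroblast level given below to between 77.5% and 78.7% of its value.

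Oocytes held few or no reads of these transcripts. ENSBTAG00000005250 had 0, 1.0, 0 and 0 normalized reads in the 4 oocyte libraries, and ENSBTAG00000019203 had 0, 0, 0.6 and 0. ENSBTAG00000030190 had 0.6, 1.0, 0.6 and 2.7, and ENSBTAG00000011847, the highest of them against its own fibroblast level, had 1.8, 5.7, 5.5 and 0.9. The group means were 0.00221%, 0.00309%, 0.00564% and 0.0214% of the fibroblast means in that order.

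At the 2-cell stage, where the transcripts were chosen, every scNT library lay above every IVF library, as for 2.39% of the 12195 genes compared. ENSBTAG00000005250 had 41.1, 49.2, 53.3 and 87.4 normalized reads in scNT 2-cell replicates 1 to 4, against 0, 0.6, 4.6 and 0 in IVF 2-cell replicates 1 to 4. ENSBTAG00000011847 had 60.9, 68.1, 50.8 and 43.7 in the scNT pools, against 2.9, 2.6, 4.6 and 2.3 in the IVF pools. The spread among scNT pools was small for this transcript, with 1.56 times between the highest and the lowest.

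ENSBTAG00000019203 had 30.1, 31.2, 62 and 42.2 normalized reads in the scNT 2-cell pools, against 0.5, 0, 2.3 and 0 in the IVF ones. ENSBTAG00000030190 had 57.0, 41.0, 33.5 and 123.0 in scNT embryos, against 1.0, 1.9, 1.2 and 0.6 in IVF embryos. The scNT values rested on 27 to 169 recovered reads per library and the IVF values on 0 to 6. In IVF 2-cell replicate 3, where the other fibroblast-abundant genes were high, the 4 transcripts had between 1.2 and 4.6 normalized reads, below the lowest scNT library for each of them.

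The transcripts were chosen on this contrast, so its p-values do not test them. In it 4 of 12195 genes, or 0.0328%, had a limma adjusted p under 0.05, and these were the 4 transcripts. The gene next in order by adjusted p, ENSBTAG00000000575, was not among them. It had means of 162.7 normalized reads in scNT and 38.3 in IVF 2-cell embryos and 73254 in fibroblasts.

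**Figure D1:**
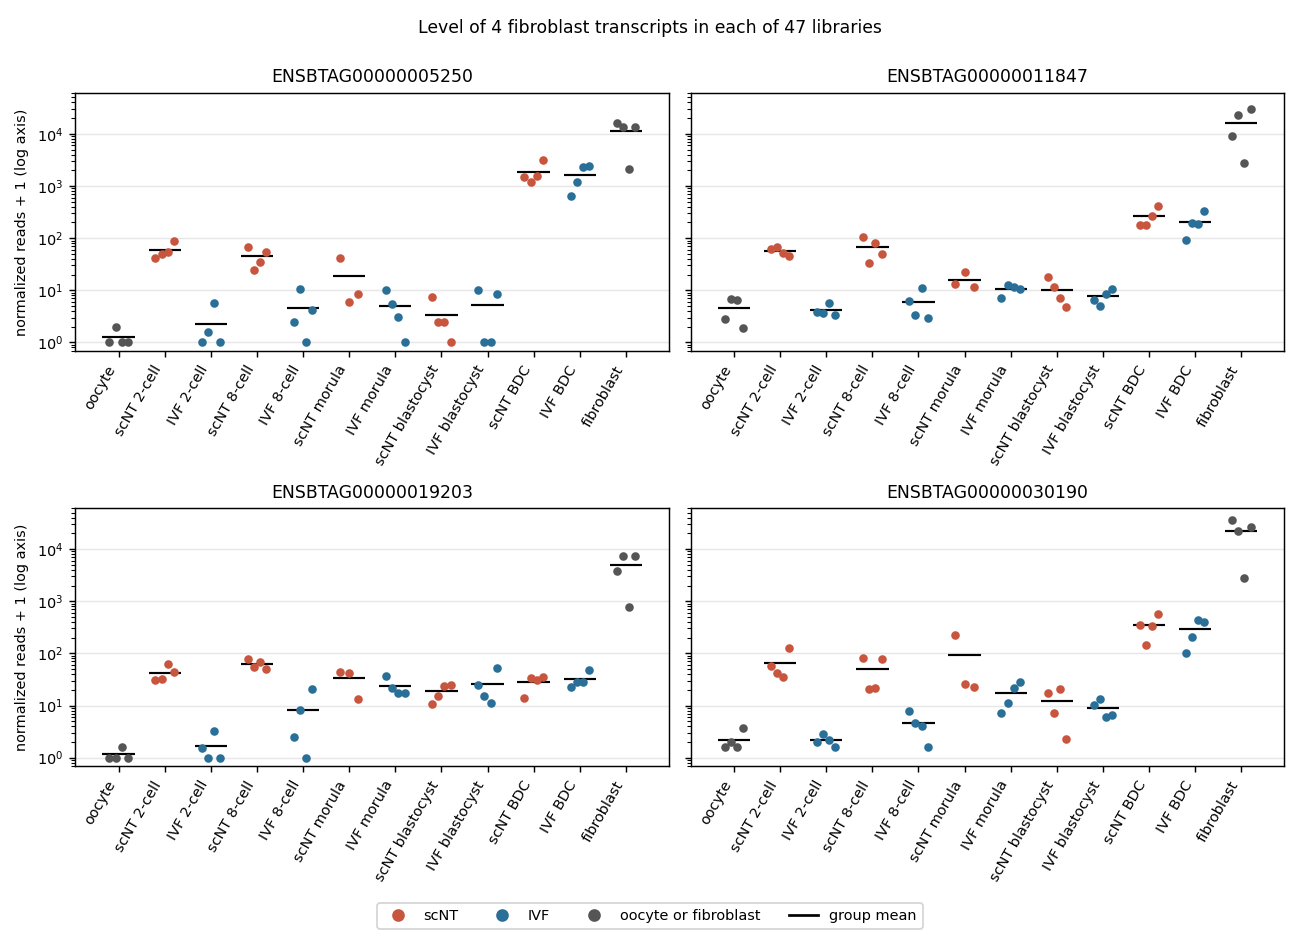
Normalized reads plus 1 on a log axis for each transcript in all 47 libraries, with scNT in red, IVF in blue, oocytes and fibroblasts in grey, and a bar at each group mean. In 2-cell and 8-cell embryos all scNT points lie above all IVF points, and from the morula on the points of the methods overlap.

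The 8-cell libraries took no part in the choice, and there the 4 transcripts were again higher in scNT than in IVF embryos in every library. ENSBTAG00000005250 had 66.9, 23.8, 33.9 and 53.6 normalized reads in scNT 8-cell replicates 1 to 4, against 1.5, 9.8, 0 and 3.2 in IVF 8-cell replicates 1 to 4, a ratio of means of 12.3. ENSBTAG00000011847 had 106.0, 32.0, 79.0 and 49.1 in scNT embryos, against 5.2, 2.4, 10.2 and 1.9 in IVF embryos, a ratio of 13.5. Replicate 1 was the highest scNT library and replicate 2 the lowest for each of these transcripts.

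ENSBTAG00000019203 had 75.4, 54.1, 66.8 and 49.8 normalized reads in the scNT 8-cell pools, against 1.5, 7.3, 0 and 20.0 in the IVF ones, a ratio of means of 8.55. Its IVF value of 20.0, in replicate 4, was the highest that any of the 4 transcripts had in an IVF 8-cell library. ENSBTAG00000030190 had 78.8, 19.7, 20.7 and 76.2 in scNT embryos, in a high and a low pair, against 6.7, 3.7, 3.1 and 0.6 in IVF embryos, a ratio of 13.9. Complete separation with scNT above IVF was seen for 3.14% of the 13000 genes tested. A gene needed at least 10 normalized reads in 4 libraries to be tested, and each transcript met this through its 4 scNT libraries, so it could enter only by being high there.

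The separation was reached in a comparison with few calls. By limma on log2(value + 1) the differences were 3.70 (SE 0.70) for ENSBTAG00000005250, 3.58 (SE 0.54) for ENSBTAG00000011847, 3.76 (SE 0.82) for ENSBTAG00000019203 and 3.38 (SE 0.65) for ENSBTAG00000030190. The IVF values are near 0, so these sizes depend on the added 1: with 5 added they were 2.56, 2.80, 2.72 and 2.47 in that order, and with 0.5 added 4.07, 3.74, 4.11 and 3.60. None of the 4 passed a Benjamini-Hochberg adjusted p of 0.05 over all genes, with limma adjusted p = 0.339, 0.114, 0.371 and 0.361 in that order, and all 4 had an unadjusted p under 0.05. Limma called 0 of 13000 genes (0%), with 1642 at an unadjusted p under 0.05. Two-sided exact permutation tests gave p = 0.0286 for each transcript, the smallest value that 4 libraries against 4 can give, among 16 such tests run over 4 stages.

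The same-numbered 8-cell libraries deviated together over all genes, so a fit with the replicate number as a block is given for this stage. The labels do not say what that number marks, and the pairing was read from these same data. The block fit called 3 of the 4 transcripts higher in scNT embryos, where 13 of 13000 genes were called higher and 155 lower. Its limma adjusted p was 0.0374 for ENSBTAG00000005250, 0.00632 for ENSBTAG00000011847, 0.0376 for ENSBTAG00000030190 and 0.0704 for ENSBTAG00000019203. All 4 were higher in scNT embryos in 4 of 4 pairs, which the complete separation of the libraries makes certain under any pairing. DESeq2 on the recovered reads called all 4, where 21 of 13000 genes were called higher and 357 lower. EdgeR called none of the 4, and 0 of 13000 genes. Without IVF 8-cell replicate 4, limma called ENSBTAG00000011847 and ENSBTAG00000019203 (adjusted p = 0.0389 and 0.0288), where 5 of 13262 genes were called higher and 77 lower. Without any other single library it called none of the 4 transcripts.

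By size the transcripts stood at the edge of the genes tested. Of the 13000 genes tested at the 8-cell stage they held places 1, 3, 4 and 5 by the log2 difference toward scNT embryos. The gene in place 2 was ENSBTAG00000004570, with a difference of 3.70, and place 6 began at 2.22. Genes that missed the filter are not in this ranking. Of the 62 fibroblast-abundant genes, ENSBTAG00000034373 missed the filter with a difference of 3.49, above that of ENSBTAG00000030190, and ENSBTAG00000024081 missed it with 2.50. Genes outside that list that missed the filter were not ranked. The median over the genes tested was 0.13.

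**Figure D2:**
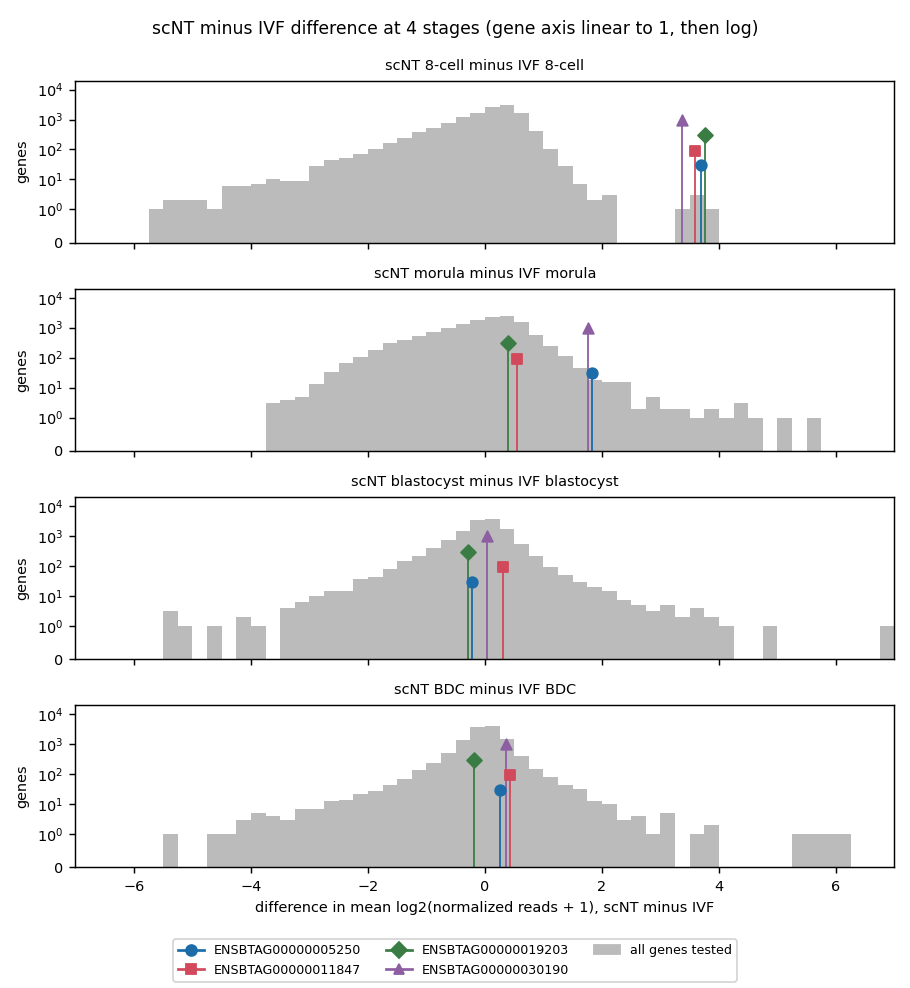
Differences in mean log2(normalized reads + 1), scNT minus IVF, for all genes tested (grey, number of genes) and for the 4 transcripts (coloured markers, whose height has no meaning) at 4 stages. At the 8-cell stage the transcripts lie at 3.38 to 3.76, apart from all but 1 of the other genes tested, and in blastocysts and BDC they lie within the bulk.

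The transcripts can be set beside the rest of the 62 fibroblast-abundant genes. In scNT 8-cell embryos the 58 other fibroblast-abundant genes had a median of 1.02% of their fibroblast mean, and the 4 transcripts had 0.225% to 1.27%. In IVF 8-cell embryos the other genes had a median of 0.943%, and the transcripts had 0.0162% to 0.149%. By the share of the fibroblast mean in scNT 8-cell embryos they ranked 26, 47, 48 and 54 of 62. By the scNT minus IVF difference they ranked 1, 3, 4 and 6 of 62.

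At the 8-cell stage the other 58 genes had a median log2 difference of 0.24, with 31 above 0. Their mean log2 level was 3.82 to 5.65 in the scNT 8-cell libraries, against 3.78 to 5.42 in the IVF 8-cell libraries, so these ranges overlapped. The list was drawn with earlier results of these data known, and its values are a description.

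**Figure D3:**
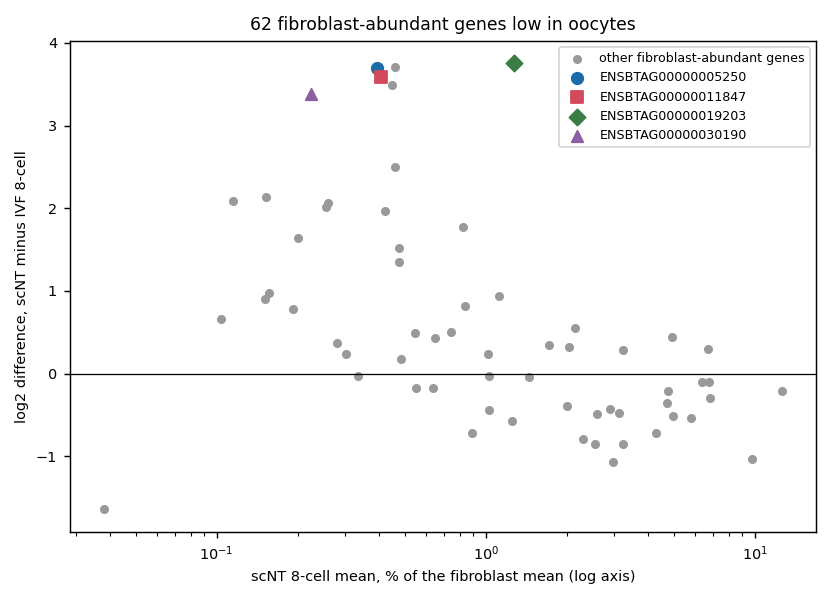
Each point is 1 of 62 fibroblast-abundant genes low in oocytes, with its scNT 8-cell mean as a percentage of its fibroblast mean on a log axis and its scNT minus IVF log2 difference at the 8-cell stage. The 4 transcripts (coloured) lie at 3.38 to 3.76 with shares of 0.225% to 1.27%, and the other 58 genes (grey) have a median difference of 0.24.

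Against oocytes, too, the scNT 8-cell embryos were higher. All 4 transcripts were called higher in scNT 8-cell embryos than in oocytes, where 8.13% of 12541 genes were called higher. The limma log2 differences were 5.15, 3.97, 5.78 and 4.29 for ENSBTAG00000005250, ENSBTAG00000011847, ENSBTAG00000019203 and ENSBTAG00000030190, with Benjamini-Hochberg adjusted p = 3.13e-05, 1.84e-04, 3.51e-06 and 2.25e-04. They passed the filter through the scNT libraries alone, and the sizes depend on the added 1 because the oocyte values are near 0. From pooled reads, ENSBTAG00000011847 was 18.4 times higher (375 reads in scNT 8-cell embryos and 24 in oocytes, exact 95% interval 12.2 to 29.1, counting error only). For ENSBTAG00000019203 the ratio was 395 with an interval of 70.5 to 15666, as oocytes held 1 read in all.

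In IVF 8-cell embryos none of the 4 transcripts passed the filter against oocytes, so limma gave them no test. ENSBTAG00000019203 averaged 7.2 ± 9.1 normalized reads in IVF 8-cell embryos, against 0.15 ± 0.30 for the oocytes (n = 4 each, SD), with overlapping ranges. The other transcripts averaged 3.53 to 4.93 in IVF 8-cell embryos, against 0.25 to 3.48 in oocytes, and their ranges overlapped too.

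The scNT 2-cell and 8-cell libraries overlapped for each transcript. ENSBTAG00000005250 averaged 44.6 ± 19.4 normalized reads in scNT 8-cell and 57.8 ± 20.4 in scNT 2-cell embryos. ENSBTAG00000030190 averaged 48.9 ± 33.1 and 63.6 ± 40.8 at these stages, and ENSBTAG00000011847 averaged 66.5 ± 32.7 and 55.9 ± 10.8. ENSBTAG00000019203 had the most upward ratio, 1.49, with 61.5 ± 11.7 in scNT 8-cell and 41.4 ± 14.8 in scNT 2-cell embryos (SD, n = 4 each), a gap larger than either SD. The 2-cell values were used to choose the transcripts, so these pairs were not tested.

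Between the 8-cell embryo and the morula the transcripts parted. In scNT embryos ENSBTAG00000011847 fell, with 12.2, 21.2 and 10.6 normalized reads in scNT morula replicates 2 to 4 and a log2 change of -2.03 (SE 0.48, limma Benjamini-Hochberg adjusted p = 0.00477). Its morula values all lay below the lowest scNT 8-cell library, at 32.0. It was the only 1 of the 4 that was called lower, where 37.7% of 13702 genes were called lower, so a call of this kind was common.

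ENSBTAG00000005250 had 41.4, 5.0 and 7.6 normalized reads in scNT morula replicates 2 to 4 and ENSBTAG00000019203 had 43.3, 41.1 and 12.1. Their log2 differences from scNT 8-cell embryos were -1.70 and -1.09 (limma Benjamini-Hochberg adjusted p = 0.0537 and 0.0645). ENSBTAG00000030190 had 225.8, 24.9 and 21.2, so that replicate 2 held more of it than any scNT 8-cell library, at most 78.8, and the other replicates lay near the low pair of 8-cell libraries.

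Replicate 2 of the scNT morulae decided several of these values. Without it ENSBTAG00000005250 and ENSBTAG00000019203 were called lower (log2 change -2.56 and -1.39, limma adjusted p = 0.00451 and 0.046), and the difference of ENSBTAG00000030190 was -0.77 instead of 0.31. Without scNT 8-cell replicate 2, ENSBTAG00000005250 was called as well (adjusted p = 0.0469). In these fits and the full fit ENSBTAG00000005250 met the filter through its scNT 8-cell libraries, so it could enter only by being high there. The other 58 fibroblast-abundant genes averaged 4.86, 4.84 and 4.37 on the log2 scale in scNT morula replicates 2, 3 and 4, and their part in these values was not tested.

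In IVF embryos the same step went the other way for ENSBTAG00000019203. It rose to 35.5, 20.8, 16.0 and 16.3 normalized reads in IVF morulae, against 1.5, 7.3, 0 and 20.0 in IVF 8-cell embryos, a log2 change of 2.27 (SE 0.83, limma Benjamini-Hochberg adjusted p = 0.0465), where 19.8% of 13407 genes were called higher. ENSBTAG00000019203 met the filter through its IVF morula libraries, so it could enter only by being high there. The IVF 8-cell replicate 4 lay within the range of the morulae. The call was lost with edgeR (adjusted p = 0.118), with DESeq2 (0.0713) and without IVF 8-cell replicate 1 or 3 or any of the IVF morula replicates (0.07 to 0.118). The other 3 transcripts did not pass the filter in this comparison. ENSBTAG00000030190 had 6.2, 10.4, 20.3 and 27.4 in IVF morulae, against 6.7, 3.7, 3.1 and 0.6 in IVF 8-cell embryos. It was called when no filter was used and when IVF 8-cell replicate 1 or 2 or IVF morula replicate 1 was left out (adjusted p = 0.023 to 0.0304). In the fits with a library left out, ENSBTAG00000030190 met the filter through its IVF morula libraries, so it could enter only by being high there.

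The step itself differed between methods for 2 of the 4 transcripts, where 13.4% of 14519 genes were called lower. The scNT change minus the IVF change was -3.04 (SE 0.71) for ENSBTAG00000011847 and -3.36 (SE 1.06) for ENSBTAG00000019203 on the log2 scale (limma interaction term, Benjamini-Hochberg adjusted p = 0.0144 and 0.0413). For ENSBTAG00000005250 and ENSBTAG00000030190 it was -1.86 and -1.61 (adjusted p = 0.274 and 0.304). The call for ENSBTAG00000019203 was lost with the replicate block (adjusted p = 0.0718), with edgeR (0.101), with a pseudocount of 0.5 (0.0512) and in 9 of 15 fits that left out 1 library, namely those without IVF 8-cell replicate 1 or 3, any IVF morula, scNT 8-cell replicate 1 or 3 or scNT morula replicate 4 (adjusted p = 0.0578 to 0.116). This comparison shares the 8-cell and morula libraries with the ones above.

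In morulae the libraries of the methods overlapped for every transcript, while 17% of all genes were higher in scNT morulae without overlap. ENSBTAG00000011847 averaged 14.7 ± 5.71 normalized reads in scNT morulae and 9.55 ± 2.46 in IVF morulae, and ENSBTAG00000019203 averaged 32.2 ± 17.4 and 22.2 ± 9.17 (SD, n = 3 and 4). ENSBTAG00000030190 averaged 90.6 ± 117 in scNT morulae and 16.1 ± 9.59 in IVF morulae, and ENSBTAG00000005250 averaged 18.0 ± 20.3 and 3.98 ± 4.00, each with replicate 2 far above the other scNT pools. Limma called 0 of the 3 transcripts tested, where 18.7% of 13590 genes were called in either direction. EdgeR and DESeq2 also called 0, and DESeq2 gave ENSBTAG00000030190 no adjusted p. The log2 difference of ENSBTAG00000030190 was 1.76 (95% interval -0.18 to 3.71, limma adjusted p = 0.169), and 0.68 without scNT morula replicate 2. By limma none of the 3 had an unadjusted p under 0.05, while edgeR gave ENSBTAG00000030190 an unadjusted p of 0.0259.

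In blastocysts 3 transcripts had low levels in both methods. ENSBTAG00000005250 had 6.6, 1.5, 1.5 and 0 normalized reads in scNT blastocysts, against 9.3, 0, 0 and 7.5 in IVF blastocysts, from 0 to 5 reads per library. ENSBTAG00000011847 had 3.8 to 16.6 in scNT and 4.1 to 9.4 in IVF blastocysts, and ENSBTAG00000030190 had 1.3 to 19.9 and 5.1 to 12.2. A difference between methods was not detectable for them at this depth. ENSBTAG00000019203 had a higher level, with 9.9, 13.9, 23.0 and 24.1 in scNT blastocysts, against 24.2, 14.3, 10.2 and 50.7 in IVF blastocysts. It alone passed the filter, and its log2 difference was -0.30 (95% interval -1.35 to 0.76, limma Benjamini-Hochberg adjusted p = 0.796), where 5.95% of 12607 genes were called. Limma, edgeR and DESeq2 each called 0 of the transcripts tested, with 0 at an unadjusted p under 0.05.

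Between the morula and the blastocyst none of the transcripts tested was called by limma in either method. In scNT embryos ENSBTAG00000030190 had the largest difference, -2.52 (SE 1.02, limma adjusted p = 0.0739), and it was called with edgeR (adjusted p = 0.0482) and with equal library totals (adjusted p = 0.044). ENSBTAG00000019203 had -0.71 in scNT embryos, and was called without scNT morula replicate 4 (-1.29, limma adjusted p = 0.0358). Of the 3 transcripts tested in scNT embryos 1 had an unadjusted p under 0.05. DESeq2 called 0 and gave ENSBTAG00000030190 no adjusted p. In IVF embryos 2 were tested, and limma, edgeR and DESeq2 called 0, with 0 at an unadjusted p under 0.05. The background was 47.7% of 13236 genes called in scNT and 59.9% of 13354 in IVF embryos.

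In BDC 3 of the 4 transcripts were higher than in blastocysts in both methods and ENSBTAG00000019203 was not called. ENSBTAG00000005250 reached 1480.1, 1206.3, 1558.8 and 3136.7 normalized reads in scNT BDC, against 0 to 6.6 in scNT blastocysts, and 632.3, 1173.1, 2358.2 and 2404.7 in IVF BDC, against 0 to 9.3 in IVF blastocysts. Its log2 differences of 9.36 (SE 0.55) in scNT and 8.87 (SE 0.90) in IVF cells stood at places 13 and 11 among the genes tested (limma Benjamini-Hochberg adjusted p = 2.7e-07 and 3.65e-05). Genes called higher made up 32.9% of 12786 tested in scNT and 32.6% of 13099 in IVF cells. All 3 transcripts called met the filter through their BDC libraries in both methods, so they could enter only by being high there. The blastocyst values of ENSBTAG00000005250 are near 0, and its differences depend on the added 1: they were 9.79 in scNT and 9.41 in IVF cells with 0.5 added, and 7.94 and 7.46 with 5 added.

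ENSBTAG00000011847 had 174.4, 178.2, 267.8 and 418.7 normalized reads in scNT BDC and 90.0, 195.8, 184.0 and 325.3 in IVF BDC, above all blastocysts of either method. It rose by 4.73 (SE 0.42) in scNT and 4.61 (SE 0.39) in IVF cells on the log2 scale (limma adjusted p = 1.97e-06 and 8.03e-07). ENSBTAG00000030190 had 351.3, 146.1, 331.3 and 579.9 in scNT BDC and 99, 204.2, 442.0 and 400.6 in IVF BDC, and rose by 5.16 (SE 0.70) and 4.84 (SE 0.46) against blastocysts (limma adjusted p = 1.28e-04 and 2.38e-06).

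ENSBTAG00000019203 had 12.9, 33.1, 30.5 and 34.3 normalized reads in scNT BDC and 21.4, 27.8, 27.5 and 47.5 in IVF BDC. The lowest scNT BDC library lay among the scNT blastocysts (9.9 to 24.1) and the other 3 above them, while all IVF BDC libraries lay within the range of the IVF blastocysts (10.2 to 50.7). Its differences from blastocysts were 0.61 (95% interval -0.29 to 1.51) in scNT and 0.50 (-0.52 to 1.52) in IVF cells on the log2 scale, with limma adjusted p = 0.210 and 0.361.

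The scNT and IVF BDC overlapped for every transcript, while 4.35% of all genes were higher in scNT BDC without overlap. The scNT minus IVF log2 differences were 0.26 (95% interval -0.74 to 1.27) for ENSBTAG00000005250, 0.43 (-0.47 to 1.32) for ENSBTAG00000011847, -0.19 (-1.02 to 0.64) for ENSBTAG00000019203 and 0.36 (-0.81 to 1.54) for ENSBTAG00000030190. Limma called 0 of 4, with adjusted p from 0.737 to 0.906 (Benjamini-Hochberg) and 0 at an unadjusted p under 0.05, where 1.34% of 12390 genes were called. DESeq2 and edgeR also called 0. The intervals still allow differences of more than 2-fold. Within each method replicate 4 was the highest library for ENSBTAG00000005250 and ENSBTAG00000011847, and IVF BDC replicate 1 the lowest IVF library for all 4.

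**Figure D4:**
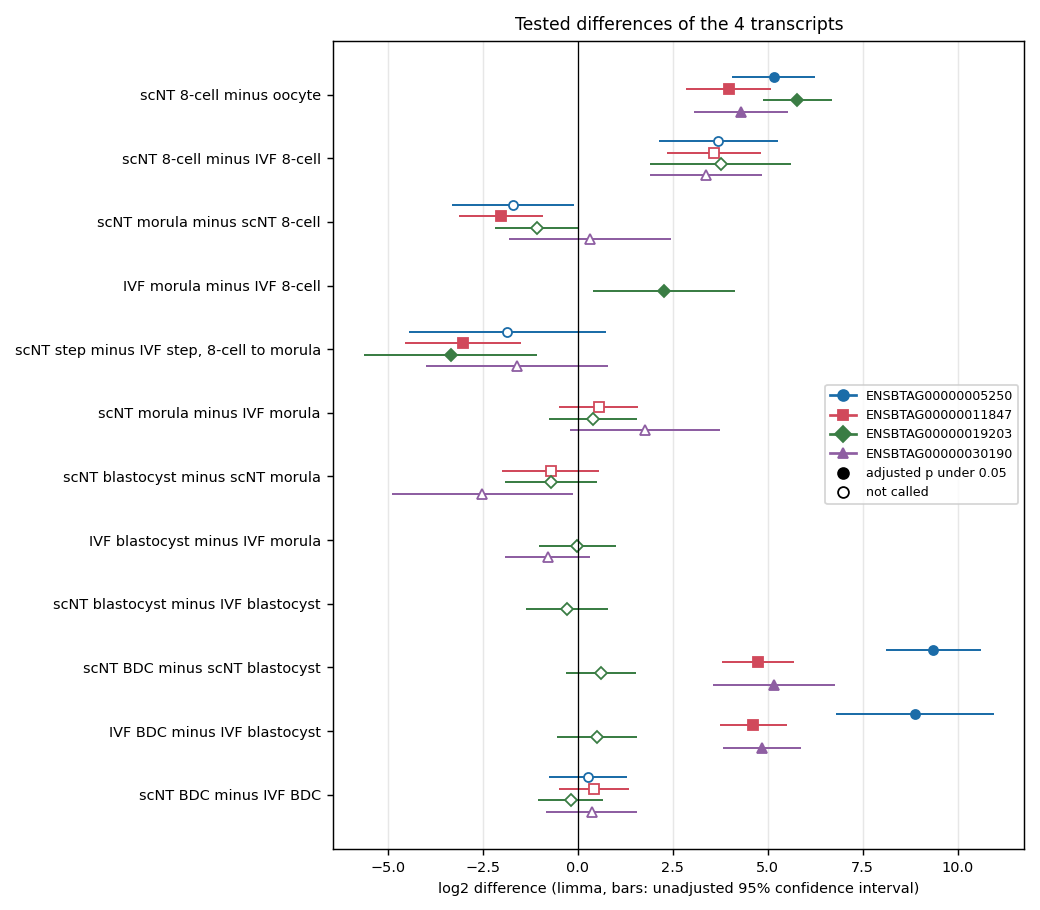
Log2 differences of the transcripts in each tested comparison, with unadjusted 95% confidence intervals from limma and filled markers where the adjusted p was under 0.05. The 8-cell differences between methods, 3.38 to 3.76, are of the same order as those from oocytes, 3.97 to 5.78, but were not called, and 3 of the 4 transcripts were called higher in BDC than in blastocysts.

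Each level can be set against the fibroblast mean of the same transcript. For ENSBTAG00000005250 the share was 0.511% ± 0.181 in scNT 2-cell, 0.395% ± 0.172 in scNT 8-cell embryos, 0.159% ± 0.180 in scNT morulae, 0.0213% ± 0.0256 in scNT blastocysts and 16.3% ± 7.74 in scNT BDC (SD over libraries of the numerator, n = 3 for morulae and 4 otherwise). Along the IVF stages it was 0.0115% ± 0.0196, 0.0321% ± 0.0383, 0.0352% ± 0.0354, 0.0372% ± 0.0434 and 14.5% ± 7.81 (n = 4 each). The scNT mean shares were smaller at each stage up to the blastocyst, the IVF mean shares lay between 0.0115% and 0.0372%, and the BDC libraries of both methods overlapped.

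For ENSBTAG00000011847 the scNT shares from the 2-cell stage to BDC were 0.344% ± 0.0664, 0.410% ± 0.201, 0.0903% ± 0.0352, 0.0574% ± 0.0348 and 1.60% ± 0.704. The IVF shares at the same stages were 0.0191% ± 0.00634, 0.0303% ± 0.0234, 0.0588% ± 0.0151, 0.0411% ± 0.0143 and 1.22% ± 0.596. The BDC shares were far below those of ENSBTAG00000005250, although the 2-cell and 8-cell shares of these transcripts were alike.

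For ENSBTAG00000019203 the scNT shares were 0.854% ± 0.305, 1.27% ± 0.242, 0.664% ± 0.359, 0.366% ± 0.143 and 0.571% ± 0.206, and the IVF shares were 0.0144% ± 0.0225, 0.149% ± 0.188, 0.457% ± 0.189, 0.513% ± 0.376 and 0.641% ± 0.234. Its share was the highest of the 4 in 8-cell embryos, morulae and blastocysts of both methods, and the lowest in BDC. For ENSBTAG00000030190 the scNT shares were 0.293% ± 0.188, 0.225% ± 0.152, 0.418% ± 0.539, 0.0507% ± 0.0401 and 1.62% ± 0.819, and the IVF shares were 0.00541% ± 0.00251, 0.0162% ± 0.0115, 0.0741% ± 0.0442, 0.0371% ± 0.0154 and 1.32% ± 0.748. Its scNT morula share rested on replicate 2.

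Over the 4 transcripts the median share of the fibroblast level from the 2-cell stage to BDC came to 0.428%, 0.402%, 0.288%, 0.0540% and 1.61% along the scNT stages. Along the IVF stages it came to 0.0130%, 0.0312%, 0.0664%, 0.0391% and 1.27%. It was 0.00437% in oocytes. Without scNT morula replicate 2 the scNT morula median was 0.102%. With fibroblast replicate 3 left out, the scNT medians were 0.336%, 0.316%, 0.225%, 0.0421% and 1.26% from the 2-cell stage to BDC.

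**Figure D5:**
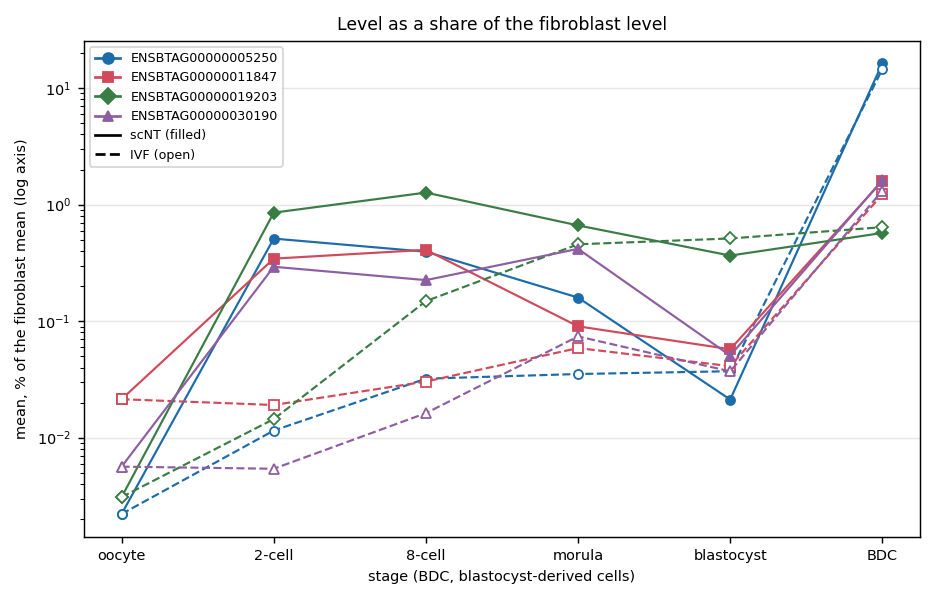
Group means as a percentage of the fibroblast mean (log axis) from the oocyte to BDC, with scNT as filled markers on solid lines and IVF as open markers on dashed lines. The scNT means lie at 0.225% to 1.27% at the 2-cell and 8-cell stages, the IVF means at 0.00541% to 0.149%, and in blastocysts and BDC the means of the methods lie within their spread of each other.

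The order of the 12 groups by mean level was much alike for 3 transcripts. Fibroblasts came first, then scNT BDC and then IVF BDC for ENSBTAG00000005250, ENSBTAG00000011847 and ENSBTAG00000030190, and the ranges of the BDC groups overlapped. For ENSBTAG00000005250 the scNT BDC range also reached that of the fibroblasts, through fibroblast replicate 3 with 2105.4 normalized reads, and a gap followed the BDC groups before scNT 2-cell embryos. For ENSBTAG00000011847 gaps lay after fibroblasts and between scNT 2-cell embryos and scNT morulae. For ENSBTAG00000030190 only fibroblasts were separated from the next group. ENSBTAG00000019203 differed in that scNT 8-cell embryos came second, with 61.5 normalized reads, ahead of scNT 2-cell embryos, scNT morulae and both BDC groups. All its neighbours below fibroblasts overlapped, and oocytes or IVF 2-cell embryos came last for each transcript.

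The genes whose pattern was most like the mean of the 4 transcripts were themselves fibroblast-abundant. Over all 47 libraries the closest of 15812 genes were ENSBTAG00000004570 (Pearson r = 0.957) and ENSBTAG00000004013 (r = 0.951). Over the 35 oocyte and embryo libraries the closest of 15085 genes were ENSBTAG00000024081 (r = 0.881) and ENSBTAG00000004570 (r = 0.814). The 47 libraries include the fibroblast and 2-cell libraries used in the choice, and the 35 include the 2-cell ones. A likeness to other fibroblast-abundant genes is therefore at least partly built in by the choice. Libraries of a group share their stage, so these values describe the pattern and carry no p. ENSBTAG00000004570 averaged 31.2 ± 15.3 normalized reads in scNT 2-cell embryos, against 1.30 ± 2.22 in the IVF ones, and 23.6 ± 7.15 in scNT 8-cell embryos, against 1.00 ± 0.938 in the IVF ones (SD over 4 libraries). ENSBTAG00000024081 averaged 12 ± 1.78 in scNT and 0.725 ± 1.09 in IVF pools at the 2-cell stage, 13.4 ± 6.87 in scNT and 1.68 ± 1.32 in IVF pools at the 8-cell stage, and 2906 ± 2042 in fibroblasts. All 3 of these genes belong to the list of 62.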

How the data were processed

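The authors deposited 1 table of normalized reads per gene and library, a signal written with 1 decimal. The submitters' processing notes name build UMD3.1 and the tools STAR, DESeq2, FastQC and MultiQC, without versions or roles. The annotation and the counter are not given in these sources. Per the labels' protocols, the large RNA fraction was amplified in several rounds of PCR, so intervals cover counting error only. Values were whole multiples of 1 step per library (0.477 to 2.04). In the 46 libraries whose step was not too near 1, 100% of the values above 0 were whole reads within 0.06, against at most 25.1% by chance. No replicate pair came near sampling noise (lowest chi-square per degree of freedom 7.32).

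The main test was limma 3.58.1 (trend, robust) in R 4.3.3 on log2(value + 1), on the groups compared, for genes with at least 10 in as many libraries as the smaller group, two-sided, with Benjamini-Hochberg adjustment over all genes and calls under 0.05. It was also run on simulated data in which only well-expressed genes were changed. That run does not cover transcripts near 0 in 1 of the groups, as these are at the 8-cell stage. Alternatives were edgeR 4.0.16 (TMM) and DESeq2 1.42.0 on recovered reads, pseudocounts of 0.5 and 5, no filter, 2 other scalings, a replicate block and each library left out. Same-numbered scNT and IVF 8-cell libraries correlated in their deviations at r = 0.231 to 0.563 in 4 of 4 pairs, and in no other comparison was every pair above 0.1. The 4 transcripts are all named, and genes like them were the 2 with the highest Pearson r in each set of libraries. None of the 20526 identifiers matched the reference table (0 matches, ARS-UCD2.0), so marker lists of 6 cell types could not be used and no sequence is shown. The transcripts, lists and tests were chosen with earlier results of these data known.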

Additional observations from a re-analysis of the deposited data

Results flagged for a closer look

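Of 44 groups of 4 libraries checked, 3 held a library far from the others. Each of the 3 rests on few reads. The nominal rate of the check, about 1 in 20, does not hold for values near 0 with ties, as these are. ENSBTAG00000005250 had 1 normalized read in oocyte replicate 2, against 0 in the other oocyte libraries, and 4.6 in IVF 2-cell replicate 3, against 0 to 0.6 in the other IVF 2-cell libraries. ENSBTAG00000019203 had 0.6 in oocyte replicate 3, against 0 in the other oocyte libraries.

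The step from the 8-cell embryo to the morula differed between scNT and IVF embryos for 2 transcripts by limma's interaction term. The scNT change minus the IVF change was -3.04 for ENSBTAG00000011847 (adjusted p = 0.0144, kept in all fits that left out 1 library) and -3.36 for ENSBTAG00000019203 (adjusted p = 0.0413, range 0.00607 to 0.116 over the alternatives).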

How the results depend on the processing

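Limma called 0 transcripts in scNT against IVF 8-cell embryos, DESeq2 4 and the fit with the replicate block 3, with the pairing there read from these same data. Leaving out 1 library gave 0 to 2 there, 1 to 3 in scNT morulae against 8-cell embryos (1 in full), 0 to 1 in scNT blastocysts against morulae (0 in full), 0 to 2 in IVF morulae against 8-cell embryos (1 in full) and 1 to 2 for the interaction (2 in full). Scaling to equal library totals or edgeR gave 1 in scNT blastocysts against morulae. In IVF morulae against 8-cell embryos a pseudocount of 0.5, edgeR and DESeq2 gave 0 and no filter gave 2. For the interaction a pseudocount of 0.5, edgeR and the replicate block gave 1. The other counts of called transcripts, 183 of 212, stayed within 1.5 times, and the causes of the shifts were not tested. These include counts of 0 that could not move, as in IVF 8-cell embryos against oocytes, where no transcript passed the filter. Over the whole table, limma called 0 genes between 8-cell embryos, DESeq2 378, the block 168 and fits without 1 library 0 to 82. In the other comparisons the same-numbered pairs did not all deviate together, with r from 0.0164 to 0.426 between BDC. What the number marks there is not known either. The block gave 2 calls in place of 2542 between morulae and 302 in place of 166 between BDC (DESeq2 455). In scNT blastocysts against morulae it gave 3776 in place of 6315. Fits without 1 library moved counts to as low as 114 between morulae, 316 between blastocysts, 80 between BDC, 1319 of 2347 against oocytes and 1185 to 4346 for the interaction (2644 in full).

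Directions that turned belonged to differences that were not called. ENSBTAG00000019203 in IVF blastocysts against morulae (-0.02) was 0.0074 with a pseudocount of 5, 0.16 with edgeR and 0.14 with DESeq2, and -0.43 to 0.30 without 1 library. Without 1 library it ran from -0.62 to 0.12 between blastocysts and from -0.34 to 0.13 between BDC, ENSBTAG00000005250 from -0.13 to 0.51 and ENSBTAG00000030190 from -0.069 to 0.73 between BDC, and ENSBTAG00000030190 from -0.77 to 0.91 in scNT morulae against 8-cell embryos. The exact permutation p of ENSBTAG00000030190 between blastocysts was 1 with a pseudocount of 0.5 and 0.971 with equal totals. Without 1 library the exact permutation p ran from 0.0286 to 0.0571 for ENSBTAG00000005250 and ENSBTAG00000019203 between 8-cell embryos. Between blastocysts it ran from 0.457 to 1 for ENSBTAG00000005250, 0.2 to 0.971 for ENSBTAG00000011847, 0.314 to 0.943 for ENSBTAG00000019203 and 0.229 to 0.971 for ENSBTAG00000030190. Between BDC it ran from 0.343 to 1, 0.514 to 1 and 0.343 to 0.943 for ENSBTAG00000005250, ENSBTAG00000019203 and ENSBTAG00000030190. The permutation tests without a scNT morula library were not run, since 2 libraries against 4 cannot go below 0.0667. The median share in IVF morulae was 0.0959% with equal library totals, against 0.0664%.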
